A study of Mus musculus with 12 samples.

Results

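Genes of the EGR and NR4A families of transcription factors, with the EGR corepressor gene *Nab2*, were followed in progenitor CD8+ T cells with and without the histone demethylase UTX. The set was taken by gene symbol and held *Nr4a1*, *Nr4a2*, *Nr4a3*, *Egr1*, *Egr2*, *Egr3* and *Nab2*, 7 of the 25860 genes in the count table, and all 7 were found. In the authors' list of ATAC-seq peaks that differed between the genotypes, 15 of 23932 peaks carried the name of 6 of these genes. No listed peak was named for *Egr1*.

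The study asked how UTX, encoded by the X-linked gene *Kdm6a*, shapes the progenitor cells (T_prog_) that give rise to diabetogenic effector CD8+ T cells. Cells came from pancreatic lymph nodes of female nonobese diabetic (NOD) mice, all of which carried the NY8.3 transgene for a T cell receptor specific for the β cell antigen IGRP. WT mice had functional UTX, and the methods describe the controls of the line as Cre-negative littermates, whereas UTX TCD mice were UTX fl/fl Lck-Cre+, with alleles backcrossed from B6 onto NOD. RNA-seq and ATAC-seq each had 3 libraries per genotype. Lck-Cre is active in developing T cells, so the design targets the whole T cell lineage, CD4+ cells included, and not only cells that have met antigen. The sample labels give the sort as Ly108+CXCR6- and the methods as Ly108+CD39-. The age of the sequenced mice is not given in the sources used here. The methods name biological replicates for ATAC-seq only, so p-values for RNA-seq measure the spread between libraries, some of which may be technical.

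The EGR and NR4A genes are immediate early genes of the T cell receptor. Signalling through ERK and calcium turns them on without new protein synthesis, and their products fall again soon after the signal ends, so that they are widely used as a record of recent antigen contact. *Nr4a1*, *Nr4a2* and *Nr4a3* encode the orphan nuclear receptors NUR77, NURR1 and NOR1, which restrain T cell responses and are known from tolerance and exhaustion. *Egr1*, *Egr2* and *Egr3* encode zinc finger factors that bind GC-rich DNA, of which *Egr2* and *Egr3* are known regulators of anergy. *Nab2* encodes a corepressor that binds the EGR proteins, is itself induced by them and closes a feedback loop on their targets.

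RNA-seq values were normalized counts, the reads of a gene divided by a size factor for its library. WT replicates 1, 2 and 3 held 146456724, 144503203 and 193568919 counted reads and UTX TCD replicates 1, 2 and 3 held 61512402, 175462433 and 187275082. At these depths 3 reads corresponded to at most 6.75 normalized counts in any library, far below the level of every member. Fold changes are UTX TCD over WT on the log2(normalized count + 1) scale from limma, fitted across the 14459 genes with a mean of at least 10 normalized counts, and all 7 members were among these. Adjustment followed Benjamini-Hochberg. A gene with adjusted p under 0.05 is said to have passed, and to be called if the size of its log2 fold change was also over 0.5. For a single gene, 3 libraries against 3 allow no exact two-sided permutation p below 0.10.

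*Kdm6a*, the targeted gene, was counted at 28365, 28949 and 29172 in the WT libraries and at 24158.5, 24792 and 24579 in the UTX TCD libraries. All UTX TCD values were lower, although the transcript was still abundant, and a count summed over a gene cannot tell deleted exons from the rest. The CD8 T cell genes (6 of 6 in the table, *Cd8a* the most abundant) summed to between 776019 and 875499 normalized counts per library. Within this list *Cd8b1*, *Cd3d* and *Cd3g* passed lower, with log2 fold changes of -0.37, -0.28 and -0.26 (limma adjusted p = 0.00634, 0.00485 and 0.00631). *Cd3e* passed higher (0.17, limma adjusted p = 0.0414), while *Cd8a* and *Trac* did not pass. For the sort markers, *Slamf6* (Ly108) was high in every library, from 23305 to 36665, and *Entpd1* (CD39) was at or below 29.6. *Cxcr6* RNA was present in all libraries, at 12757, 9619 and 13724 in WT and at 5286, 5994 and 5695 in UTX TCD cells, so the labelled gate without CXCR6 protein was not matched by an absence of its RNA.

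WT replicate 2 stood apart in these genes. It was the highest WT library for 6 of the 7 members, against 36.3% of all genes tested, and also for 13 of 22 other immediate early genes and 14 of 23 T cell activation genes. The same held for 11 of 16 anergy, 10 of 14 exhaustion and 8 of 13 ERK feedback genes. It was the highest for only 1 of 14 ERK kinase genes and 3 of 13 genes of the serum response factor list. Among the UTX TCD libraries, replicate 3 was the highest for 5 of the 7 members, against 39.3% of all genes tested. The same libraries had the lowest RNA of their genotype for the inducible HSP70 genes. *Hspa1a* was counted at 895, 89.8 and 1051 in WT and at 216, 244 and 53.1 in UTX TCD cells, and its neighbour *Hspa1b* at 1476, 199 and 1471 and at 335, 369 and 104. *Dnajb1* was lowest in the same libraries, but across the heat shock list WT replicate 2 was the highest WT library for 8 of 12 genes and UTX TCD replicate 3 the highest UTX TCD library for 1. The HSP70 genes are named because of these values. Their RNA can change with tissue handling, and their part in the results below was not tested, but the members are given with WT replicate 2 and, where leaving it out changed the outcome of the test, also without it.

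Of the 7 members, 3 passed the test with higher values in UTX TCD cells (*Nr4a2*, *Nr4a3* and *Egr2*) and 1 with lower values (*Nab2*), where 20.2% and 20.5% of all genes tested passed higher and lower. Only *Nr4a2* was called, and it was higher, beside 10.5% of all genes called higher and 7.05% called lower. The libraries of the genotypes were fully separated for *Nr4a2*, with UTX TCD above, and for *Nab2*, with UTX TCD below, as they were in either direction for 25.8% and 26.1% of all genes. The median log2 fold change of the members was 0.25, beside 0.00 for all genes tested. The direction of each of the 7 differences was the same under every scaling and test tried.

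**Figure D1:**
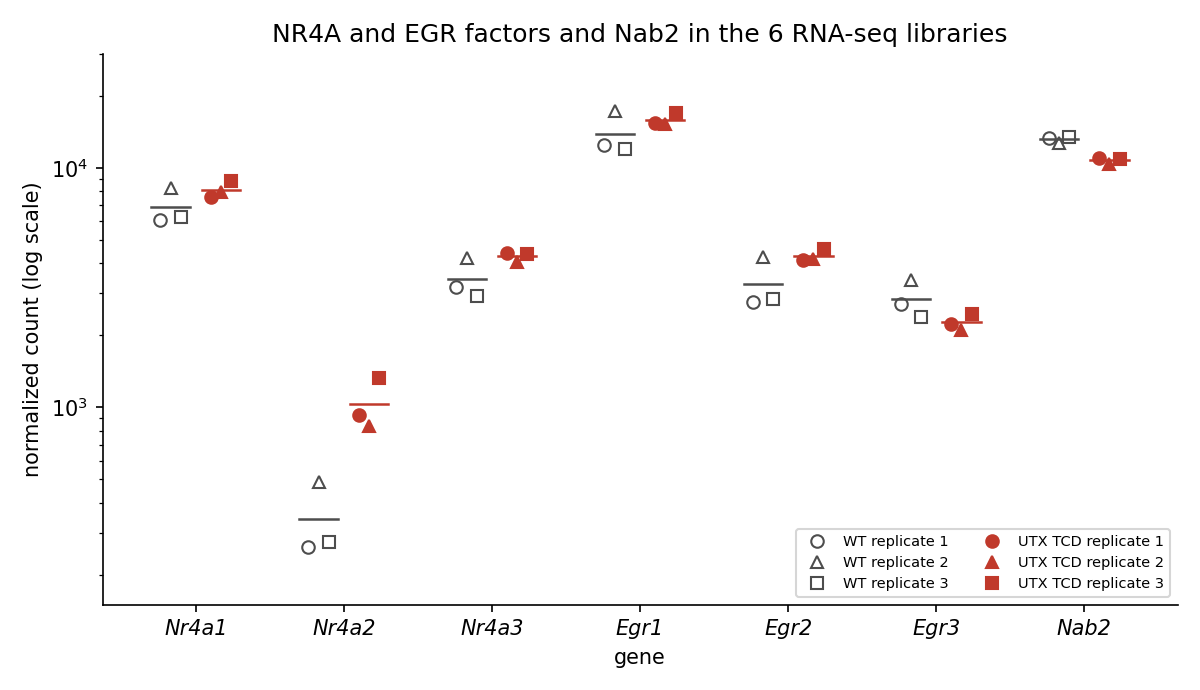
Normalized counts on a log axis for each gene in each of the 6 RNA-seq libraries, open grey symbols for WT and filled red symbols for UTX TCD, with the shape giving the replicate and the bar the mean of 3. *Nr4a2* is separated between the genotypes, from 486 and below in WT to 837 and above in UTX TCD cells, and the WT triangle (replicate 2) lies above the other WT libraries for 6 of the 7 genes.

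Among the NR4A receptors, *Nr4a2* was the least abundant per kb of exon and differed the most. Its normalized count was 261, 486 and 275 in the WT libraries and 927, 837 and 1326 in the UTX TCD libraries. The genotypes did not overlap, with UTX TCD above, even though WT replicate 2 was at 1.82 times the mean of the other WT libraries. UTX TCD replicate 3 likewise stood above the other two of its genotype. The mean of *Nr4a2* in 3 libraries was 340.3 ± 126 (SD) in WT and rose to 1029.9 ± 260.5 (SD). The fitted difference was 1.63 as log2 (SE 0.25, 95% interval 1.06 to 2.19, limma adjusted p = 0.000935), or 3.09-fold. It remained called with any single library left out.

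*Nr4a1*, the most abundant of the receptors per kb and a common reporter of T cell receptor signalling, was counted at 6087, 8290.1 and 6262 in WT and at 7556, 7923 and 8844 in UTX TCD cells. WT replicate 2 fell within the range of the UTX TCD libraries, so the groups overlapped, while the other WT libraries lay below all of them. The difference did not pass the test (log2 fold change 0.25, SE 0.11, limma adjusted p = 0.109). It did when WT replicate 2 was left out, at 0.39 with a limma adjusted p of 0.00405, but leaving out the highest WT library can only raise the difference. With any other single library left out it did not pass (limma adjusted p from 0.0916 to 0.319).

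*Nr4a3* was counted at 3180, 4211 and 2930.04 in WT and at 4420.05, 4067 and 4396 in UTX TCD cells. Again only WT replicate 2 reached into the UTX TCD range, where it exceeded UTX TCD replicate 2. *Nr4a3* rose by a log2 fold change of 0.34 (SE 0.12, limma adjusted p = 0.0477), close to the threshold. It no longer passed when any library other than WT replicate 2 was left out, with limma adjusted p from 0.0709 to 0.144, or with edgeR (adjusted p = 0.0643), but did with DESeq2 (adjusted p = 0.0163). The limma adjusted p was 0.0587 with a block for the replicate numbers, 0.0593 with TMM scaling and 0.0515 without a filter on low values. With WT replicate 2 left out the difference was 0.49 (limma adjusted p = 0.000961).

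Of the EGR genes only *Egr2* passed the test. *Egr1*, the most abundant of them per kb, was counted at 12495, 17325 and 11989 in WT and at 15386, 15258 and 17007 in UTX TCD cells. Here WT replicate 2 was the highest of all 6 libraries, and the remaining WT libraries were the lowest. The difference did not exceed the spread of the replicates (log2 fold change 0.21, SE 0.12, 95% interval -0.07 to 0.48, limma adjusted p = 0.211). Without WT replicate 2, the highest library, it was 0.37 with a limma adjusted p of 0.00206. With any other single library left out it did not pass (limma adjusted p from 0.232 to 0.527).

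*Egr2* was counted at 2749.9, 4248 and 2832 in WT and at 4119, 4169.6 and 4584 in UTX TCD cells. The WT libraries other than replicate 2 lay well below the UTX TCD range, and replicate 2 lay inside it. *Egr2* rose by a log2 fold change of 0.42 (SE 0.15, limma adjusted p = 0.048), but the adjusted p was 0.0681 with edgeR and 0.144 with DESeq2, and between 0.0653 and 0.158 in limma when any library other than WT replicate 2 was left out. In limma it was also 0.0572 with TMM scaling and 0.0509 without a filter on low values. Left without WT replicate 2, the difference was 0.62 (limma adjusted p = 0.000331), past the limit for a call.

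*Egr3*, which did not pass, had a lower mean in UTX TCD cells. It was counted at 2702, 3399 and 2393 in WT and at 2240.4, 2097 and 2464 in UTX TCD cells. The value of UTX TCD replicate 3 exceeded that of WT replicate 3, and UTX TCD replicates 1 and 2 lay under the WT range. The difference of -0.31 (SE 0.12, 95% interval -0.58 to -0.04) had a limma adjusted p of 0.0695. DESeq2 gave an adjusted p of 0.0228, and limma gave 0.0189 without WT replicate 3, at -0.42. Leaving out WT replicate 2, where *Egr3* was highest, reduced the difference to -0.17 (limma adjusted p = 0.173).

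*Nab2* was the steadiest of the set, counted at 13374, 12715 and 13556 in WT and at 11067, 10363.5 and 10908 in UTX TCD cells. The genotypes did not overlap, with UTX TCD below, and WT replicate 2 was not high. The mean of *Nab2* in 3 libraries fell from 13215 ± 442 (SD) to 10779 ± 369 (SD), which is -0.29 as log2 (SE 0.05, limma adjusted p = 0.001), under the fold limit for a call. It passed the test with each library left out. Reads of *Nab2* are uncertain, because the gene overlaps genes on the opposite strand in GENCODE M21 and the strand setting of the counting is not given in the sources used here. *Nemp1* overlaps it by 1668 bp, *Stat6* by 40 bp and the antisense gene *Gm16229* by 1646 bp. *Nemp1* and *Stat6* had higher means in UTX TCD cells. No value is given here for *Gm16229*, and the part of the overlaps in the decrease of *Nab2* was not tested. *Nemp1* was counted at 4121, 4061 and 4466 in WT and at 4569, 4797 and 5102 in UTX TCD cells, and *Stat6* at 43860.4, 45596 and 45941 and at 46789.6, 49069.8 and 46492.

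**Figure D2:**
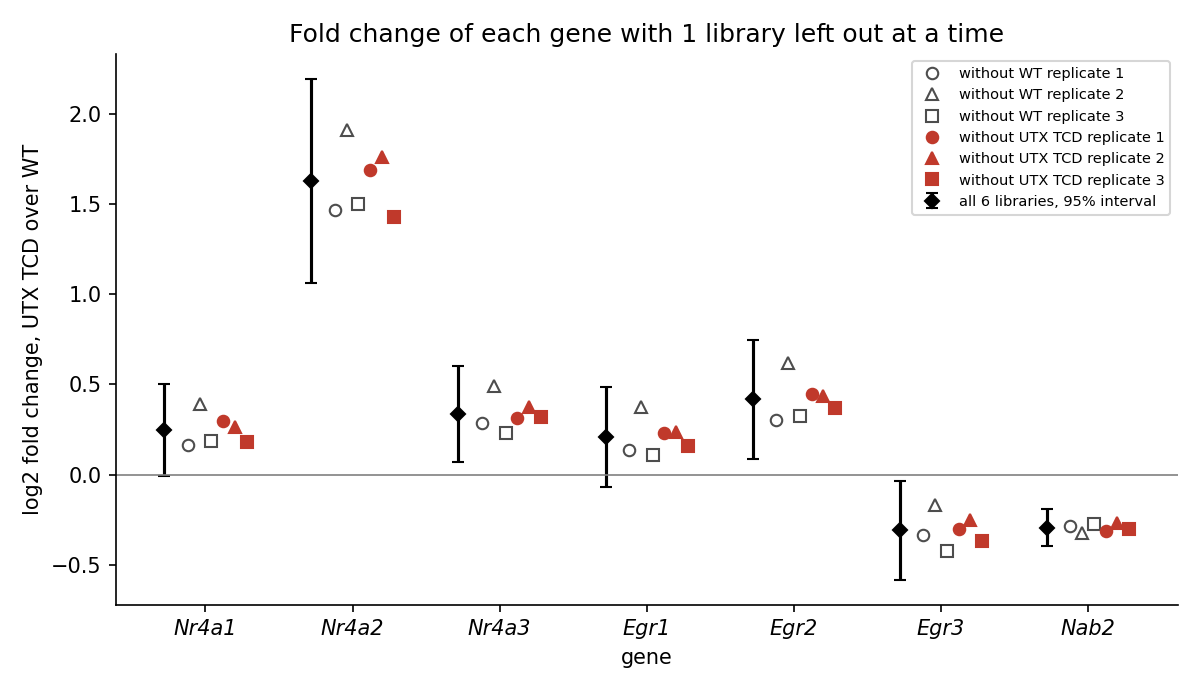
Log2 fold change of each gene (UTX TCD over WT) with all 6 libraries, shown as a black diamond with its 95% interval from limma, and with 1 library left out at a time, shown with the symbol of that library. Removing WT replicate 2 (open triangle) gave the highest value for each gene but *Nab2*, up to 1.91 for *Nr4a2* and 0.62 for *Egr2*, and only for *Egr3* and *Nab2* did the values lie below 0.

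To compare levels between genes, normalized counts were divided by the length of all exons of a gene in GENCODE M21. Per kb, the order in WT cells was *Nab2* (4495 ± 150), *Egr1* (3111 ± 657), *Nr4a1* (1960.05 ± 349), *Egr2* (964 ± 248), *Egr3* (642 ± 117), *Nr4a3* (574 ± 113) and *Nr4a2* (83.8 ± 31.1), each as mean ± SD of 3 libraries. This order held within every WT library. The ranges of neighbours over the 3 libraries were separate except for *Egr3* and *Nr4a3*. In UTX TCD cells *Nab2* (3666 ± 125) and *Egr1* (3545 ± 218) overlapped, and *Nr4a3* (717 ± 32.9) stood above *Egr3* (514 ± 41.9) in all libraries. *Nr4a2* was the lowest member in both genotypes, also after its increase to 254 ± 64.2 per kb.

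Across the 6 libraries, log2 values of *Egr1*, *Egr2*, *Nr4a1* and *Nr4a3* followed each other closely, with Pearson's r from 0.91 to 0.98 for the 6 pairs. *Nr4a2* followed them less closely (r from 0.79 to 0.91) and had the most negative r of the set, with *Nab2* (-0.92). *Egr3* did not follow them (r from -0.03 to 0.25), and *Nab2* ran against them (r from -0.80 to -0.62). These r describe 6 libraries that share a genotype difference and the high WT replicate 2. The genes most like each member over the same 6 libraries were *Zfp326* and *Eea1* for *Nr4a2* (r = 1.00 for each), *Anxa4* and *Kif2a* for *Nr4a1*, *5530601H04Rik* and *Gm10744* for *Nr4a3*, *Zfp619* and *Taf6* for *Egr1*, *Cxadr* and *Zfp451* for *Egr2*, *Gm12696* and *Trnt1* for *Egr3*, and *4930486L24Rik* and *Psmg4* for *Nab2*, all with r that rounds to 0.99 or 1.00. *Eea1*, for example, was counted at 1625, 2058 and 1684 in WT and at 2639, 2543 and 3109 in UTX TCD cells, with the same high WT replicate 2 and UTX TCD replicate 3 as *Nr4a2*.

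Chromatin accessibility near these genes was read from the authors' list of peaks that differed between the genotypes, which gives for each peak their mean log2 concentration (normalized ATAC-seq reads in the peak) in each genotype and no value per library. The peaks were therefore chosen by the authors for a difference, carry no spread here, and were not tested. Regions without a listed peak are not described by this table. Of the 15 peaks, 9 were more and 6 less accessible in UTX TCD cells, beside 68.8% and 31.2% of all listed peaks. The median difference of the 15 peaks was 0.28, beside 0.49 for all listed peaks. Of the 15 peaks, 4 of the more and 1 of the less accessible differed by over 0.5, the size limit that the study set. These were peaks named for NR4A genes. Over all listed peaks, the median difference was 0.69 for the more and -0.76 for the less accessible, both beyond that limit.

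All 4 peaks named for *Nr4a2* were more accessible in UTX TCD cells. The gene lies on the minus strand of chromosome 2 (mm10), from 57106830 to 57124003, and RefSeq gives it a long form that starts at 57124003 and a short form that starts at 57115038. The larger differences lay beyond the 3′ end of the gene, between genes. A peak at chr2:57102339-57102739, 4.09 kb past the gene end, had authors' means of 5.30 in WT and 6.83 in UTX TCD cells, a difference of 1.52. The next, at chr2:57105479-57105879 and 0.95 kb past the end, had means of 4.62 and 6.05, a difference of 1.43. Inside the gene the peaks were stronger and the differences smaller. The peak at chr2:57111437-57111837, over exon 3 of 8, had means of 7.90 and 8.44, and that at chr2:57123657-57124057, over the start of the long form and its 5′ UTR in exon 1, had means of 8.43 and 8.70.

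**Figure D3:**
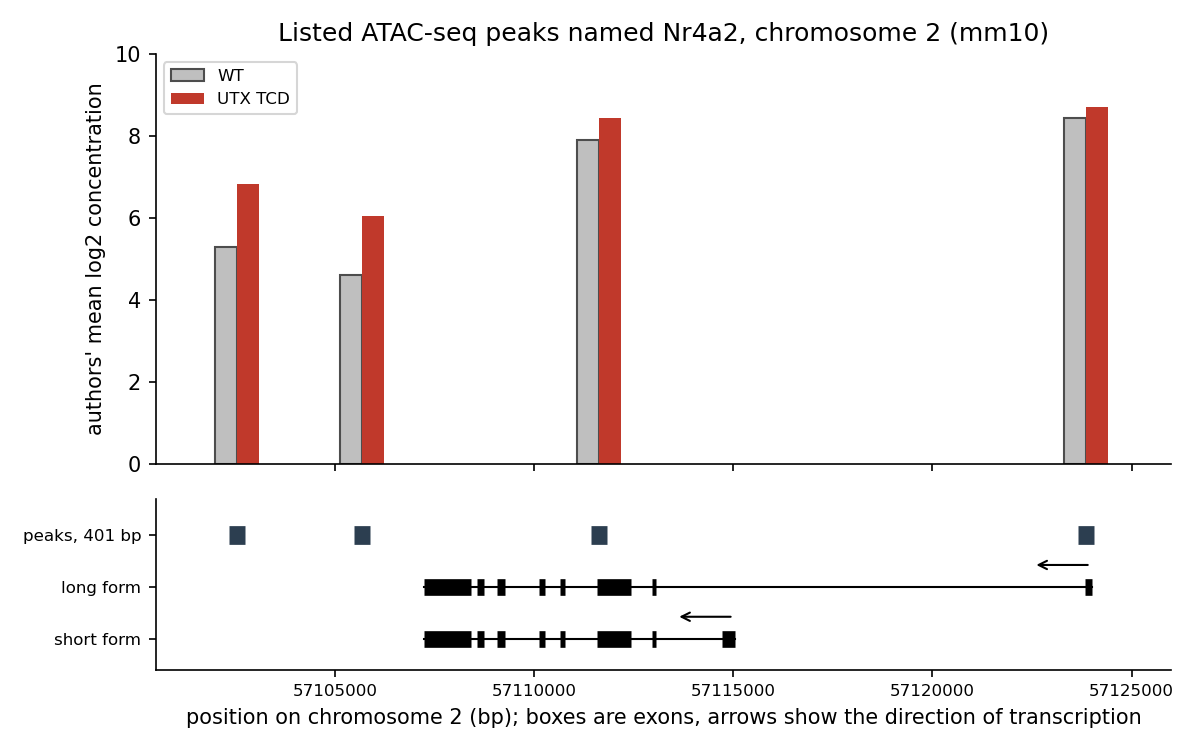
The 4 listed peaks named *Nr4a2* on chromosome 2 of mm10, with the authors' mean log2 concentration in each genotype as bars from 0 (upper panel, bars drawn wider than the peaks) above the peaks and the exons of both RefSeq forms to scale (lower panel). Each peak is higher in UTX TCD cells, and the differences of 1.52 and 1.43 lie to the left, past the 3′ end of the gene.

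*Nr4a3*, on the plus strand of chromosome 4 from 48045153 to 48086447, had 3 listed peaks in both directions. A weak intergenic peak at chr4:47818775-47819175, which the authors placed at -226.3 kb from the start, had the largest difference of the 15 peaks, from 4.15 in WT to 6.07 in UTX TCD cells (1.92). At that distance the name of this peak rests on the nearest start alone. The peaks inside the gene are annotated to intron 7 of 7. That at chr4:48074841-48075241 went from 11.29 to 11.74, and that at chr4:48076616-48077016 went from 8.43 to 8.12. So neighbouring peaks in the same intron, less than 2 kb apart, differed in opposite directions.

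For *Egr2* both listed peaks were more accessible, and for *Egr3* all 3 were less accessible. The *Egr2* peaks lay upstream of the gene on chromosome 10, at chr10:67497161-67497561 and chr10:67503594-67503994, which the authors placed at -40.5 kb and -34.1 kb from the start. Their means went from 8.66 to 9.01 and from 9.84 to 10.20. The former overlaps the gene *Gm32255* in GENCODE M21. The *Egr3* peaks lay upstream on chromosome 14. The peak nearest the gene went from 11.43 to 11.21, and those at chr14:70056892-70057292 and chr14:70021416-70021816, which the authors placed at -20.2 kb and -55.7 kb from the start, went from 10.92 to 10.69 and from 8.74 to 8.39. Both of the farther peaks lie in introns 6 and 4 of 6 of the neighbouring gene *Pebp4* and overlap *Gm33524*, so their name rests on the nearest start alone.

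*Nr4a1* on chromosome 15 had a listed peak in each direction. At chr15:101250546-101250946, at -16.1 kb from the start, the means went from 9.50 to 9.77, and over the 3′ UTR in exon 7 of 7, at chr15:101274360-101274760, they went from 6.35 to 5.61. The single peak named for *Nab2*, at chr10:127655182-127655582, went from 9.10 to 8.81. It lies 5.34 kb past the end of *Nab2* and inside *Stat6*, at exon 13 of 22, so it cannot be assigned to *Nab2* with any certainty. Differences of these peaks and of the *Egr2* and *Egr3* peaks were all under 0.5 in size except that of the *Nr4a1* 3′ UTR peak (-0.73).

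Sequences are shown for the peaks with the largest differences, 2 past *Nr4a2* and the far peak named for *Nr4a3*, since each is more accessible in UTX TCD cells by over 1 on the log2 scale. The central 300 bases of a peak were read from GRCm38.p6 (the build of mm10), plus strand, and searched on both strands for the EGR elements GCGTGGGCG and GCGGGGGCG, the NR4A element AAAGGTCA, the cyclic AMP element TGACGTCA and its core TGACGT (which is part of it), and the CArG box of serum response factor. For the peaks, results of this search are left out. The motifs TGANTCA (AP-1), CTTTGA (TCF), TTCNNNGAA (STAT) and TGTGGT (RUNX) were added after the data had been seen. Each of the 3 windows held TGANTCA, against 10.3% of the central 300 bases of all 23907 listed peaks searched. The letters were TGAGTCA and TGACTCA past *Nr4a2* and TGAATCA in the *Nr4a3* window. The last lacks the C or G in the middle of the usual AP-1 site, and the 10.3% also counts any base there. Over all 15 member peaks 4 held TGANTCA, so only 1 of the 12 that were not picked for their difference. The peak nearer *Nr4a2* also held TGTGGT 2 times (34.3% of listed peaks hold it), and the *Nr4a3* peak held CTTTGA (25.1%). Over all 15 member peaks, 6 held TGTGGT, 3 held CTTTGA and 0 held TTCNNNGAA (8.82% of listed peaks). Capitals mark matches on either strand, and the windows are chr2:57102389-57102688, chr2:57105529-57105828 and chr4:47818825-47819124.
Nr4a2 peak farther from the gene end: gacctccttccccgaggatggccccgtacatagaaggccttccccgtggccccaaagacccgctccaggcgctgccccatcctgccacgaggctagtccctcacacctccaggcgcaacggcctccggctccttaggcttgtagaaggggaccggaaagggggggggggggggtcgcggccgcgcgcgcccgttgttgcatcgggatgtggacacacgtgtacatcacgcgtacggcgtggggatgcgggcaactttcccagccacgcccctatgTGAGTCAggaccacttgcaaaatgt
Nr4a2 peak nearer the gene end: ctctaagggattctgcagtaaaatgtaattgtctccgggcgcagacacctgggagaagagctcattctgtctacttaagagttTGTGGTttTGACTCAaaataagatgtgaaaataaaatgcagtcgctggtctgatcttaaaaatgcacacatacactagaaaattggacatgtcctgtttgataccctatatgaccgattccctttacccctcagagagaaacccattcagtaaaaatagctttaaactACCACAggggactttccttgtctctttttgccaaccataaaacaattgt
Nr4a3 far upstream peak: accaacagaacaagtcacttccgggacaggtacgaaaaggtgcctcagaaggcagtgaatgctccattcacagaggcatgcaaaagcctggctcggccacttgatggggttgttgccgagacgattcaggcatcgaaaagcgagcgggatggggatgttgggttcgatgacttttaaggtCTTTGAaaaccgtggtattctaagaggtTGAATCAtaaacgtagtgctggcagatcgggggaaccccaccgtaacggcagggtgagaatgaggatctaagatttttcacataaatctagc
A match gives letters in a window and says nothing on binding there.

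In the 250 bases before each start, RefSeq promoters of *Egr2*, *Nr4a1*, *Nr4a2*, *Nr4a3* and *Nab2* were searched in the same way in GRCm38.p6, 9 starts in all. The promoter file held none for *Egr1* or *Egr3*, and lacked the short form of *Nr4a2* and 1 start of *Egr2*. The core TGACGT was found for 2 of these genes, *Nr4a3* and *Egr2*, and in 6.47% of 32851 promoters. In *Egr2* it was a single site shared by 3 overlapping windows. A CArG box was found in *Egr2* only (1.47% of promoters), at 2 sites, of which 1 was shared by the same 3 windows. GCGGGGGCG was found in the *Nr4a1* promoter (2.57%). *Nr4a3* held TGACGT 3 times, and the 98 bases that lie before its GENCODE gene, chr4:48045055-48045152 on the plus strand, show 2 of them in capitals. The promoter of the long form of *Nr4a2*, which bears the peak at its start, held none of the searched letters.
Nr4a3 promoter, 98 bases: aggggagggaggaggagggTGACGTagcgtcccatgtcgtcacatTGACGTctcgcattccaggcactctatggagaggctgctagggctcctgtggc

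The pathway around these factors was read from gene lists, each described by its counts. For comparison, 20.2% of all genes tested passed higher and 20.5% lower. Of the relatives and partners, 4 of 7 could be tested. *Nab1*, the other EGR corepressor, fell like *Nab2*, from 20139.5 ± 1386 (SD, n = 3) to 16334 ± 727 (SD, n = 3), at -0.30 (limma adjusted p = 0.00331). *Nrip1*, a corepressor of nuclear receptors, rose by 0.54 (limma adjusted p = 0.015) although WT replicate 2, at 20795, was above UTX TCD replicate 3, at 20615. The testable genes here also include the retinoid X receptor genes *Rxra* and *Rxrb*, partners of NR4A receptors, which did not pass. *Egr4*, the fourth EGR gene, was under the limit for testing, at 3.96, 0.99 and 0 in WT and at 15.7, 16.0 and 12.5 in UTX TCD cells.

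Upstream of the EGR genes, 1 of 13 genes in a list of serum response factor, its cofactors and CREB and MEF2 family genes passed higher (*Elk1*, 0.30, limma adjusted p = 0.00192) and 3 lower, among them *Srf* itself (-0.24, limma adjusted p = 0.00625), all under the fold limit. In the ERK kinase list 2 of 14 passed higher and 4 lower, and *Rps6ka1*, which encodes the ERK-activated kinase RSK1, was called lower (-0.53, limma adjusted p = 7.9e-05), but fell short of the fold limit for a call when every library was scaled to the same sum, which moved the median of all genes by 0.06. It was counted at 34330, 31169 and 34883 in WT and at 23292, 23863 and 22290.0 in UTX TCD cells, without overlap. Among ERK feedback genes 4 of 13 passed higher and 4 lower. *Dusp2*, a nuclear phosphatase of ERK induced by T cell receptor signals, fell by 0.96 on the log2 scale (limma adjusted p = 2.14e-05), from 11936, 10766 and 13114 in WT to 5815, 6551 and 5955 in UTX TCD cells. The median log2 fold changes of these lists were 0.01, -0.07 and 0.10, beside 0.00 for all genes tested, and -0.02, -0.08 and 0.27 when WT replicate 2 was left out.

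Other immediate early genes were split, with 5 of 22 passing higher and 7 lower (median -0.05). *Jun*, which encodes an AP-1 subunit, rose from 1273, 1122 and 1339 to 2078, 2259.75 and 2442 (0.86, limma adjusted p = 0.000105), and *Fosb* rose by 0.86 (limma adjusted p = 0.00284). Its AP-1 relative *Fos* fell instead, from 1405, 1437 and 1404 to 898, 866 and 1060.02 (-0.59, limma adjusted p = 0.000914). *Ier3* and *Klf6* fell by 1.34 and 0.62 on the log2 scale (limma adjusted p = 6.29e-05 and 3.39e-05). *Atf3* was called higher (limma adjusted p = 0.00703) at no more than 29.2 normalized counts in any library. In *Jun*, *Fos* and *Klf6* the genotypes were separated and WT replicate 2 was not unusually high, in contrast to *Egr1* and *Egr2*. For *Fos* it was the highest WT library, but only slightly. *Fosb* and *Ier3* were separated too, but with WT replicate 2 further above the other WT libraries. Their WT values were 233, 300 and 244 for *Fosb* and 1696, 2187 and 1746 for *Ier3*.

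Genes of T cell activation were as divided, with 6 of 23 higher and 6 lower (median 0.04). *Irf4*, whose level follows receptor signal strength, rose by 0.62 (limma adjusted p = 0.0212) from 2046, 3366 and 2097 to 3540.5, 3440.07 and 4267, and *Bhlhe40* rose by 1.44 (limma adjusted p = 0.00778). Both had their highest values in WT replicate 2 and UTX TCD replicate 3 of each genotype, as *Nr4a2* did. In the other direction *Tnfrsf18* (GITR), *Cd200* and the chemokine gene *Xcl1* fell, with log2 fold changes of -0.96, -1.18 and -1.95 (limma adjusted p = 1.28e-05, 0.00168 and 0.000422). *Xcl1* went from 992, 1358 and 978 in WT to 220.4, 227 and 447 in UTX TCD cells. *Ccl3* was called higher (limma adjusted p = 0.00811) but lay at or below 20.2 normalized counts in every library. The number called higher in this list went from 3 to 6 when WT replicate 2 was left out, and was 3 when UTX TCD replicate 3 was left out with it.

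Anergy genes linked to *Egr2* and *Egr3* passed higher in 6 of 16 and lower in 2 (median 0.15). *Nrn1*, which encodes neuritin, had the largest change, from 527, 751 and 532 in WT to 12126.5, 12271 and 10341 in UTX TCD cells (4.28, limma adjusted p = 8.91e-08). *Cdkn1a*, the gene of the cell cycle inhibitor p21, rose from 29.7, 45.4 and 29.7 to 403, 305 and 435 (3.42, limma adjusted p = 9.19e-06), and *Socs1* rose by 0.66 (limma adjusted p = 0.000154). *Ndrg1* fell by 1.14 on the log2 scale (limma adjusted p = 1.84e-05). All 4 of these called genes were separated between the genotypes.

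Exhaustion genes linked to NR4A factors passed higher in 5 of 14 and lower in 3 (median 0.05). *Pdcd1* (PD-1) fell from 373, 489 and 399 to 236, 199 and 369 (-0.69, limma adjusted p = 0.0351), and *Cd38* from 639, 1128 and 629.9 to 286, 247 and 519.7 (-1.21, limma adjusted p = 0.0115). *Havcr2* (TIM-3) was called lower (limma adjusted p = 0.00301) from at most 21.7 normalized counts. *Tox2* went from 65.4, 65.2 and 64.1 to 197.9, 191 and 237 (1.66, limma adjusted p = 9.72e-05), *Bach2* rose by 0.59 (limma adjusted p = 3.03e-05) and *Ikzf2* by 0.78 (limma adjusted p = 0.00662). Without WT replicate 2, 1 gene of this list was called lower in place of 3, and 2 when UTX TCD replicate 3 was left out with it.

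In the heat shock list 5 of 12 genes passed higher and 1 lower (median 0.10). *Dnajb1* fell by 0.52 on the log2 scale (limma adjusted p = 0.0414), from 31900.0, 25438 and 31714 in WT to 24145, 24235 and 14855 in UTX TCD cells, and *Hsph1* rose by 0.80 (limma adjusted p = 0.0045). *Hspb1* was called higher at or below 40.8 normalized counts (limma adjusted p = 0.0176). The decrease of *Dnajb1* no longer passed when every library was scaled to the same sum, and when WT replicate 2 was left out 3 genes were called lower in place of 1. With UTX TCD replicate 3 left out as well, 2 were called lower. Part of this list therefore moved with the genotype, and its part in the values of the members was not tested.

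Markers of other cells were low but in part moved with the genotype. The B cell list (5 of 5 genes in the table) summed to 2951, 2437 and 2800.4 in WT and to 1221, 1082 and 1000.3 in UTX TCD cells. Most of this came from *Cd79b*, at 2502, 1930.1 and 2465 against 648, 633 and 469.6, whereas *Cd79a*, at 415, 465 and 285 against 526, 407 and 379.6, did not pass. The defining genes *Ms4a1* and *Pax5* lay below 100 in every library. At that level *Ms4a1* went up, not down (1.72, limma adjusted p = 0.0367). The myeloid list (6 of 6) summed to 1241, 1242 and 1079.9 in WT and to 1127, 882 and 1040.1 in UTX TCD cells, with *Cd68* the most abundant and 4 genes below 100 in every library. Its genes went both ways. *Itgam* fell from 453, 434 and 459.9 to 72.0, 91.3 and 64.1 and *Csf1r* also fell (-1.85, limma adjusted p = 0.00496), while *Cd68* rose from 685, 667 and 544 to 972, 703 and 896 (0.43, limma adjusted p = 0.0377). Of the NK cell list (3 of 3), *Eomes* made up nearly all, with sums of 13406, 15369.8 and 13193 in WT and of 19113, 19092 and 26857 in UTX TCD cells, and CD8 T cells express *Eomes* too. *Ncr1*, which defines NK cells, was below 10 in every library and at 0 in several.

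The dendritic cell list (5 of 5, *Xcr1* the most abundant) summed to 246, 209 and 201 in WT and to 283, 273 and 285 in UTX TCD cells, without overlap. In it *H2-Ab1* rose (1.17, limma adjusted p = 0.0351), at no more than 67.5 normalized counts in any library. *Xcr1* and *Zbtb46* did not pass (limma adjusted p = 0.608 and 0.0541). *Flt3* and *Siglech*, under the limit for testing, had lower means in UTX TCD cells. For the CD4 T cell list (3 of 3, *Foxp3* the most abundant) the sums were 475, 373.2 and 442 in WT and 373.4, 349.9 and 344 in the other genotype. In that list *Cd4* and *Zbtb7b* fell, with log2 fold changes of -0.74 and -1.85 (limma adjusted p = 0.0384 and 0.0095), from low levels. *Foxp3* did not fall (0.05, limma adjusted p = 0.809). The erythroid list (3 of 3, *Alas2* the most abundant) summed to between 163 and 299 per library. The part of other cells in the member values was not tested. In bulk RNA, more or fewer cells of a type and more or less RNA per cell cannot be told apart.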

How the data were processed

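RNA-seq and ATAC-seq were each deposited for 3 WT and 3 UTX TCD libraries, grouped by the genotype in the labels. For RNA-seq, the authors aligned reads to mm10 with HISAT2 2.2.1 and assigned them to genes with featureCounts; the deposited signal is a gene's reads over the DESeq2 size factor of its library. Gene annotation and strand setting are not given in the sources used here. For ATAC-seq, the authors used cutadapt, Bowtie2, SAMtools, Picard, MACS2, DiffBind and HOMER, and deposited for each selected peak the mean log2 concentration of each genotype. Both tables also hold the authors' own comparison (fold changes, their errors and p-values), of which nothing was used.

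Genes with a mean of at least 10 normalized counts entered limma 3.58.1 (R 4.3.3; lmFit, then eBayes with trend), which compared the genotypes on log2(normalized count + 1) without further terms, with Benjamini-Hochberg adjustment over all 14459 genes. Tables were handled with python 3.11.15, pandas 2.3.3, numpy 2.4.6 and scipy 1.17.1. The step of each library returned whole reads for 100% of values (tolerance 0.05), on which edgeR 4.0.16 called 2541 genes and DESeq2 1.42.0 called 2422, beside 2538 for limma. The test was tried on simulated data first. Alternatives covered the pseudocount, filter, scaling, test, replicate block, fold limit, peak distance, peak difference and each library left out; leaving out WT replicate 2 and UTX TCD replicate 3 together, list counts without them, and the AP-1, TCF, STAT and RUNX motifs were chosen after seeing the data. Gene positions and lengths are from GENCODE M21, starts and promoters from RefSeq on GRCm38.p6, both the build of mm10.

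The members and lists were chosen with earlier results of these data known. Named are the members, *Kdm6a*, genes overlapping a member, the called genes of each list (the 3 largest increases and 3 largest decreases where over 6 were called), the most abundant gene of each marker list and the 2 genes most correlated with each member; any other gene was named after its values were seen.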

Additional observations from a re-analysis of the deposited data

How the results depend on the processing

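No difference of a member changed direction under any alternative, and *Nr4a2* and *Nab2* kept their side of the test threshold in all. With 1 library left out at a time, log2 fold changes ranged from 0.11 to 0.37 for *Egr1*, 0.31 to 0.62 for *Egr2*, -0.42 to -0.17 for *Egr3*, 0.17 to 0.39 for *Nr4a1*, 1.43 to 1.91 for *Nr4a2*, 0.23 to 0.49 for *Nr4a3* and -0.32 to -0.27 for *Nab2*. The number of members that passed ranged from 2 to 6 and the number called from 1 to 2, the second being *Egr2* without WT replicate 2. Without WT replicate 2 and UTX TCD replicate 3, an alternative chosen after seeing the data, *Egr1* was at 0.32 and *Nr4a1* at 0.33, both past the threshold, and 2 members were called.

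*Egr2* no longer passed without a filter on low values (0.42), with TMM scaling (0.40), edgeR (0.39) or DESeq2 (0.39), and *Nr4a3* no longer passed without a filter (0.34), with TMM scaling (0.32) or edgeR (0.32), so that 2 members passed under each of the filter, TMM and edgeR alternatives. *Egr3* passed with DESeq2 (-0.32). For these the cause was not tested.

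The labels number the replicates but do not say whether same-numbered libraries are paired. Deviations from the genotype mean correlated at 0.31, -0.20 and 0.09 for same-numbered libraries and at -0.32 to 0.29 for other pairs. With 3 libraries per genotype these values cannot settle whether the libraries are paired. With the replicate block *Nr4a3* had a limma adjusted p of 0.0587 at 0.34, and *Egr2* one of 0.0431. With the block 3 members passed, and 2474 genes were called in place of 2538.

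With no fold limit 4 members and 5887 genes were called, 2924 higher and 2963 lower; with a limit of 1, 1253 genes, 769 higher and 484 lower. Of the 9 more and 6 less accessible peaks, 3 and 2 lay within 10 kb of a start, 4 and 1 differed by over 0.5, and 3 and 0 by over 1. For comparison, the median differences of all more and all less accessible listed peaks were 0.69 and -0.76, beyond 0.5 and short of 1 in size. The peak table gives no values per library, so its differences have no error.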
